A study of Mus musculus with 4 samples.

Results

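Bmp2 is the only protein-coding gene in a gene desert on mouse chromosome 2, which also holds non-coding genes. The accessible chromatin regions of that desert are described here at 2 stages of early forelimb bud development, titled E9.5 and E10.5. The gene, ENSMUSG00000027358.6, occupies chr2:133377895-133388621 on the plus strand (mm9) and has 1 annotated transcription start. Its protein-coding neighbours are Fermt1, a cell adhesion gene 606 kb upstream, and Hao1, a peroxisomal oxidase gene 934 kb downstream. A region belonged to the locus when Bmp2 had the protein-coding transcription start nearest to its centre, or when it lay in a window of 1 Mb around the gene (chr2:133000001-134000000). The rule gave 48 of the 89378 regions, of which 14 came from the E9.5 list (42613 regions) and 34 from the E10.5 list (46765 regions). Bmp2 was the nearest gene for all 14 at E9.5 and for 30 of the 34 at E10.5. The remaining 4 E10.5 regions lay in the 1 Mb window, with Fermt1 as nearest gene for 1 of them and Hao1 for 3. The locus was chosen by its stage-specific regions, that is, by the contrast between the lists of the 2 stages. Its counts of stage-specific regions are therefore given as a description, beside the same share over all regions, and carry no test.

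Bmp2 encodes a secreted bone morphogenetic protein. BMP ligands bind type I and type II serine/threonine kinase receptors, which phosphorylate SMAD1, SMAD5 and SMAD9, and these enter the nucleus together with SMAD4. In limb buds BMPs are produced by the mesenchyme and the apical ectodermal ridge, and they act in digit patterning, interdigital cell death and the onset of cartilage formation. Genes of this kind are often flanked by long gene-free stretches with distant enhancers, and duplications of a limb enhancer beyond the human BMP2 gene cause a form of brachydactyly.

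The data came from ATAC-seq, in which a transposase inserts sequencing adapters into open chromatin. Wild-type NMRI embryos were used at both stages, with 2 biological replicates per stage, and each replicate consisted of the forelimb bud pair of a single embryo. The E9.5 samples, which the protocol places later on that day than their title, so that less than a day separates the stages, retained some adjoining trunk, whereas none is mentioned for E10.5, so that stage and trunk tissue cannot be told apart. The tissue label at E10.5 also lists hindlimb buds, although the source label and the protocol give forelimbs. The buds are a mixture of mesenchyme, ectoderm and other cells, and a region that is open in more cells cannot be told apart from one that is more open in each cell.

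Replicates had been merged by the authors into 1 list per stage, so that no value has a replicate error. The score of a region is 10 times the negative log10 of the better p-value of the replicates and grows with sequencing depth, which is unknown here. For comparisons between stages the score was therefore converted to a rank percentile within its list, where 100 is the highest score. Regions with 1 bp or more in common with the other stage were taken as shared, and the rest as E9.5-specific or E10.5-specific. A region was distal when its centre was more than 2.5 kb from the start of a protein-coding gene. Among genes chosen for their tissue, a region lay within that distance of the start of 6 of 6 limb mesenchyme genes in both lists. All 6 trunk genes had such a region at E9.5, and 5 of them, all but Pax2, at E10.5. Of 2 hindlimb genes both had such a region at E9.5, and Tbx4 but not Pitx1 had one at E10.5. Of 3 apical ridge genes, Fgf8 had none at E10.5, and of 4 blood and vessel genes only Kdr had one at either stage. The part of these other cells in the values of the Bmp2 locus was not tested. The share of all genes with a region at the start is not given here, so these counts do not identify the tissue.

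**Figure D1:**
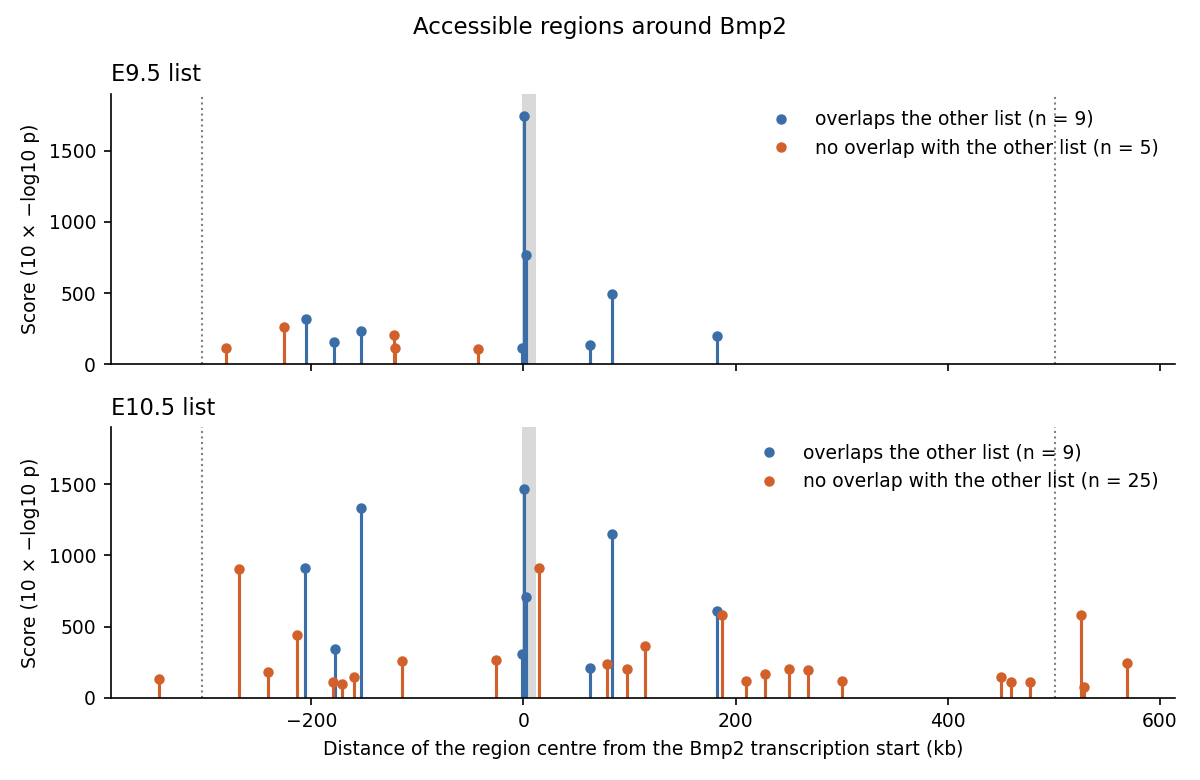
Accessible regions at the Bmp2 locus by distance from the Bmp2 transcription start (x axis, kb, negative values upstream) and score (y axis, 10 times the negative log10 p), E9.5 above and E10.5 below, with shared regions in blue and stage-specific ones in orange. The grey band is the Bmp2 gene, and the dotted lines mark where Fermt1 or Hao1 becomes the nearest gene. The 5 E9.5-specific regions are all upstream of Bmp2, whereas E10.5-specific regions lie on both sides.

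The following sequences, read from the mm9 assembly and given 5′ to 3′ on the plus strand, show the kinds of region the locus contains. They are the 300 bp upstream of the Bmp2 start, inside the region that scored highest at the locus in both lists, and the central 300 bp of the highest-scoring shared distal region, the highest-scoring E9.5-specific region and the 3 highest-scoring E10.5-specific regions nearest Bmp2. A stretch of 30 bp around the only GLI motif match among the members is given last. Capitals mark matches, on either strand, to any of 18 short motifs that are spelled out with the motif results.
Bmp2 start, chr2:133377595-133377894: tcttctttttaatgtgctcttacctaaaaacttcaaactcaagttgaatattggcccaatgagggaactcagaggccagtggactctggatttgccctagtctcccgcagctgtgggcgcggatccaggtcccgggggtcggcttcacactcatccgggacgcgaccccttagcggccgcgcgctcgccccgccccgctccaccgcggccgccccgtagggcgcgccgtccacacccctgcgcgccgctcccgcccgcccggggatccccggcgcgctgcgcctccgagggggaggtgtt
shared distal, chr2:133224933-133225232: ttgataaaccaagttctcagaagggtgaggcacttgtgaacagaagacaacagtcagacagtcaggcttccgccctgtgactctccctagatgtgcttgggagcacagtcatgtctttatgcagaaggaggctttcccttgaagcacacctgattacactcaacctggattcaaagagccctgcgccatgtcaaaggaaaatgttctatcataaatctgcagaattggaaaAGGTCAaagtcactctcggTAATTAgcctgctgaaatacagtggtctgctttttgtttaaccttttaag
E9.5-specific, chr2:133152336-133152635: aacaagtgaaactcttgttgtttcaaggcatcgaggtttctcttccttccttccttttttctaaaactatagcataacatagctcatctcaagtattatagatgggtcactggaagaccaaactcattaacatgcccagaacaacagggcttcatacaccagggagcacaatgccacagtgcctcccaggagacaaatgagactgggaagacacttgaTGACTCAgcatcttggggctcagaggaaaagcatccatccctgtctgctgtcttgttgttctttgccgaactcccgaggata
E10.5-specific 1, chr2:133392483-133392782: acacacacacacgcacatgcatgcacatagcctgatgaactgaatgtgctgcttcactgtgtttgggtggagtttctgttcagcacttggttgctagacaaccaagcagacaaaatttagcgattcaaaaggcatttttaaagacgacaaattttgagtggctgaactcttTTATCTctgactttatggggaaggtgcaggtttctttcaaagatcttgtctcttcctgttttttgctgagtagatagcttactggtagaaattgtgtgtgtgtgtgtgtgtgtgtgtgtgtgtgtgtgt
E10.5-specific 2, chr2:133109238-133109537: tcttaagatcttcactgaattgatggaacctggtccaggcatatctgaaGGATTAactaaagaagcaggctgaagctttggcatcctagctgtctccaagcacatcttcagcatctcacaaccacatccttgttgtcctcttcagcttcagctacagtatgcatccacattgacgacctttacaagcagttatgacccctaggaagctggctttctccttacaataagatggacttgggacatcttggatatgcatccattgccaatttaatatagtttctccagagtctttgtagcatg
E10.5-specific 3, chr2:133564827-133565126: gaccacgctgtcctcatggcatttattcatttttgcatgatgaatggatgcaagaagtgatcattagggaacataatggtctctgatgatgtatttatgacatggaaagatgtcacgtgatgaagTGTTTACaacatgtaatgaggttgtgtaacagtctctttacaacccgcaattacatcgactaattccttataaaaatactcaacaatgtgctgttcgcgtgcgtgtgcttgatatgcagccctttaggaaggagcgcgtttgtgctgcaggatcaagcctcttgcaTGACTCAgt
GLI match, chr2:133207035-133207064: ttttgcagtccGGGTGGTCatgaaaggagg

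The upstream flank of Bmp2 differs in base composition from the distal regions. It has a GC content of 67.0% and 33 CpG dinucleotides in 300 bp, with no match to a motif. The shared distal sequence has a GC content of 44.7% and 3 CpG dinucleotides, and it holds AGGTCA at position 232 and TAATTA at position 251, counted from its 5′ end. The E9.5-specific sequence holds an AP-1 motif at position 219. Among the E10.5-specific sequences, the first contains a GATA motif on the opposite strand (TTATCT) at position 172 and a GT repeat of 36 bp. The second has a PITX motif on the opposite strand (GGATTA) at position 50. The third contains a forkhead motif at position 126 and an AP-1 motif at position 292, and has 9 CpG dinucleotides.

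At Bmp2 itself, 3 regions within 2.5 kb of the start were present in both lists. The first spans the start and the non-coding first exon (E9.5, chr2:133377364-133379564). It scored 1740.25 at E9.5, at percentile 90.6, and 1465.46 at E10.5, at percentile 92.4. It had the highest score of the regions nearest Bmp2 in either list. The region next to it covers the second exon with the beginning of the coding sequence, and it scored 766.12 (percentile 74.6) at the earlier and 704.6 (percentile 79.2) at the later stage. Both regions thus held a similar rank at the 2 stages. The third region lies 1.83 kb upstream at E9.5 and stood lower in the list, with a score of 117.67 at E9.5 (percentile 15.6) and 307.01 at E10.5 (percentile 58.2).

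Of the 14 E9.5 regions nearest Bmp2, 5 (35.7%) were E9.5-specific. The share over the whole E9.5 list was 29.9%. Neighbouring regions may not be independent, and the locus was chosen by the contrast between the stages, so no interval is given for these shares. Among the distal regions the count was 5 of 11 (45.5%, background 40.3%), and at 100 kb or more from Bmp2 it was 4 of 8 (50%, background 42.6%). The E9.5-specific share of the locus was therefore near the background in each class. All 5 of these regions lay upstream, where 9 of the 14 regions were found, and the 5 downstream E9.5 regions were all shared. The highest-scoring one, 225 kb upstream (chr2:133151933-133153038), scored 261.66 at percentile 50.2. The next, 122 kb upstream, had a score of 204.43 at percentile 41.8, and the third, 121 kb upstream and close to it, scored 117.06 at percentile 15.3. The other 2 scored 111.65 at 281 kb and 109.81 at 42.9 kb upstream. All 5 were thus in the middle or lower part of the list, and the nearest E10.5 region was 5.67 to 15.6 kb away.

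Of the 30 E10.5 regions nearest Bmp2, 21 (70.0%) were E10.5-specific, where the background was 35.0%. Among distal regions the count was 21 of 27 (77.8%, background 49.6%), and at 100 kb or more it was 17 of 21 (81.0%, background 65.2%). In the 1 Mb window 25 of 34 regions (73.5%) were E10.5-specific. Since this is the contrast by which the locus was chosen, nothing is read from these differences from the background. The E10.5-specific regions lay on both sides of the gene, 8 of 12 upstream and 13 of 18 downstream. In the higher-scoring 50% of each list 11 of 15 regions nearest Bmp2 were E10.5-specific and 1 of 5 was E9.5-specific. Against the whole other list, not its higher-scoring 50%, 7 of these 15 regions were E10.5-specific and 1 of the 5 was E9.5-specific. The share over all regions at these 50% settings is not given here. The backgrounds above are for the full lists, so nothing is read from these counts. With non-coding genes also counted as nearest genes, 4 regions per list were assigned to Bmp2, and 1 of the 4 was specific at either stage.

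The E10.5-specific region closest to the gene on its downstream side, 14.7 kb from the start and beyond the 3′ end of Bmp2 (chr2:133391508-133393758), had the highest score of its class, 909.45 at percentile 84.3. It was 2251 bp wide, and the nearest E9.5 region was 10.4 kb away. The second was a region of 2783 bp located 269 kb upstream (chr2:133107997-133110779), which scored 902.41 at percentile 84.1. These 2 regions had nearly the same score on opposite sides of the gene. A region 187 kb downstream (chr2:133564405-133565548) scored 583.44 at percentile 75.1, with the nearest E9.5 region 3.27 kb away. The 2 that followed were located 213 kb upstream, with a score of 437.55 (percentile 68.0), and 114 kb downstream, with a score of 360.37 (percentile 62.8). These 5 regions thus extended from 269 kb upstream to 187 kb downstream of the start.

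The other 6 upstream E10.5-specific regions had scores from 95.11 to 265.33, the highest of them 26.3 kb from the start. The region 114 kb upstream, with a score of 257.96, overlapped A430048G15Rik, a gene annotated as a processed transcript, and was the only distal member within a gene of any type. The 10 remaining downstream regions scored 108.43 to 235.32, at distances from 78.9 to 478 kb. The E10.5-specific regions had a median score of 194.19, above the median of 153 over all E10.5-specific regions, and a median width of 1047 bp beside 863 bp. The shared regions at E10.5 had a median score of 704.6 and ranged from 209.58 to 1465.46, so that the E10.5-specific regions overlapped them in score.

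Accessible regions continued beyond the limits of the locus, with scores that differed across them. The last E10.5 region nearest Bmp2 on the downstream side, at 478 kb, scored 111.39, and the next, at 525 kb, was nearest Hao1 and scored 582.71 (chr2:133902048-133904395). The other 2 Hao1-nearest regions in the window scored 73.24 and 241.97. On the upstream side the outermost region nearest Bmp2 was the E9.5-specific one at 281 kb, and the E10.5 region at 344 kb, nearest Fermt1, scored 133.98. All 4 E10.5 members not nearest Bmp2 were E10.5-specific. Just outside the window, the next E10.5 regions scored 174.58 at 395 kb upstream and 1495.95 at 663 kb downstream, and both were E10.5-specific. The next E9.5 regions, 415 kb upstream and 930 kb downstream, scored 116.75 and 143.88 and were shared. An overlap of 1 bp separates shared from specific regions. The smallest overlap of a shared pair was 790 bp. The smallest gap of a specific region was 430 bp, for the E10.5-specific region 180 kb upstream. That region would count as shared if a gap of up to 500 bp were allowed.

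Of the 9 shared pairs, 6 were distal. The pair 205 kb upstream (E9.5, chr2:133171723-133173405) scored 315.62 at E9.5 (percentile 55.6) and 914.11 at E10.5 (percentile 84.4). At 178 kb upstream the scores were 154.93 (percentile 29.8) and 344.99 (percentile 61.6). At 153 kb upstream (E10.5, chr2:133224380-133225786) they were 232.76 (percentile 46.3) and 1331.39 (percentile 91.0). All 3 upstream pairs therefore stood higher in the E10.5 list, and the last was the highest-scoring distal region of the locus.

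Downstream, the pair at 62.7 kb had a score of 138.86 at E9.5 (percentile 24.5) and 209.58 at E10.5 (percentile 44.6). The pair at 83.5 kb scored 492.08 (percentile 65.9) and 1150.98 (percentile 88.6). The pair at 183 kb, the last E9.5 region on this side, scored 195.67 (percentile 40.1) and 612.03 (percentile 76.2). Thus all 6 distal pairs, 6 of 6, ranked higher at E10.5, by 20.1 to 44.6 percentile points with a median of 30.3. Over all 15693 shared distal regions of the E9.5 list the share with a higher-ranking E10.5 partner was 58.2%, the median change was 4.04 points, and the 5th and 95th percentiles were -37.1 and 48.7. Each of the 6 changes lay within that range. The 3 pairs within 2.5 kb of the start also ranked higher at E10.5, by 1.8, 4.59 and 42.6 points. The E10.5 region was wider in 6 of 6 distal pairs, with a median difference of 359 bp, whereas 43.4% of all such regions had a wider partner and their median difference was -25 bp. Overlap of the lists was used in the choice of the locus, and these ranks and widths belong to the same lists, so no test was made.

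**Figure D2:**
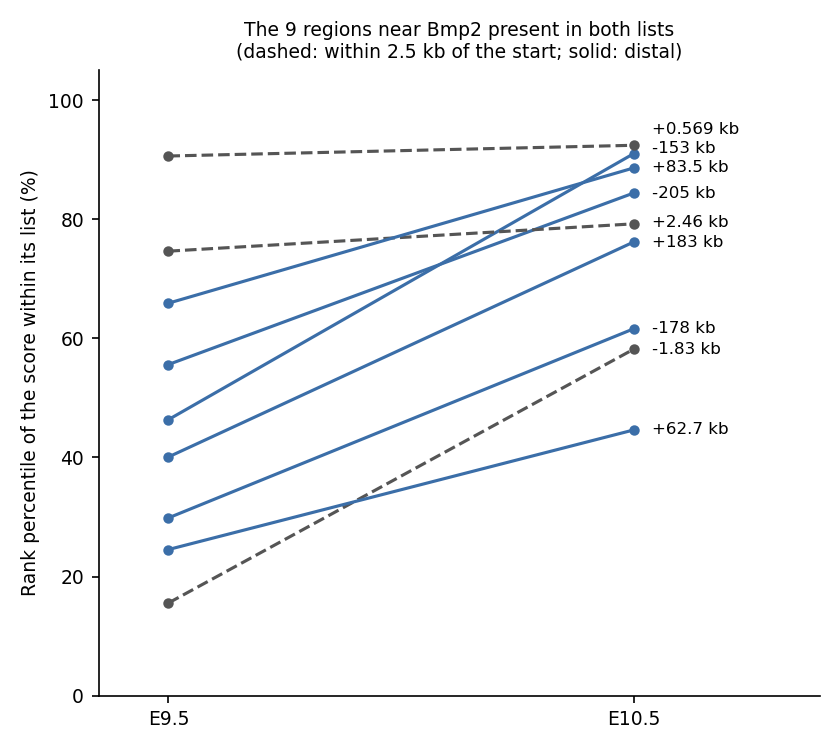
Rank percentile within the list (y axis, 0 to 100, where 100 is the highest score) of the 9 shared Bmp2 regions at E9.5 and E10.5 (x axis), each line joining the regions of a pair (solid, distal, dashed, within 2.5 kb of the start). All 9 pairs stand higher at E10.5, the 6 distal pairs by 20.1 to 44.6 points and the 3 pairs within 2.5 kb of the start by 1.8, 4.59 and 42.6 points.

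Regions were unevenly placed along the desert. In bins of 100 kb from the Bmp2 start, the bin from 200 to 300 kb downstream contained 0 E9.5 and 4 E10.5 regions, and the 3 bins beyond it held 0 E9.5 regions and 1, 3 and 3 E10.5 regions. Upstream, the bin from 200 to 100 kb contained 4 E9.5 and 6 E10.5 regions, and that from 300 to 200 kb contained 3 and 4. The E9.5 regions were thus mostly upstream or at the gene, whereas E10.5 regions continued far downstream. Between the last E9.5 region at 183 kb and the next at 930 kb there was a stretch of 746 kb (chr2:133561131-134307331) without an E9.5 region, which was singled out after its values were seen. It held 15 E10.5 regions, of which 9 were nearest Bmp2 and 6 nearest Hao1. Among 388 stretches of 500 to 1000 kb without an E9.5 region, the median number of E10.5 regions was 2 and the maximum was 15, that of this stretch, which is a description for the same reason.

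**Figure D3:**
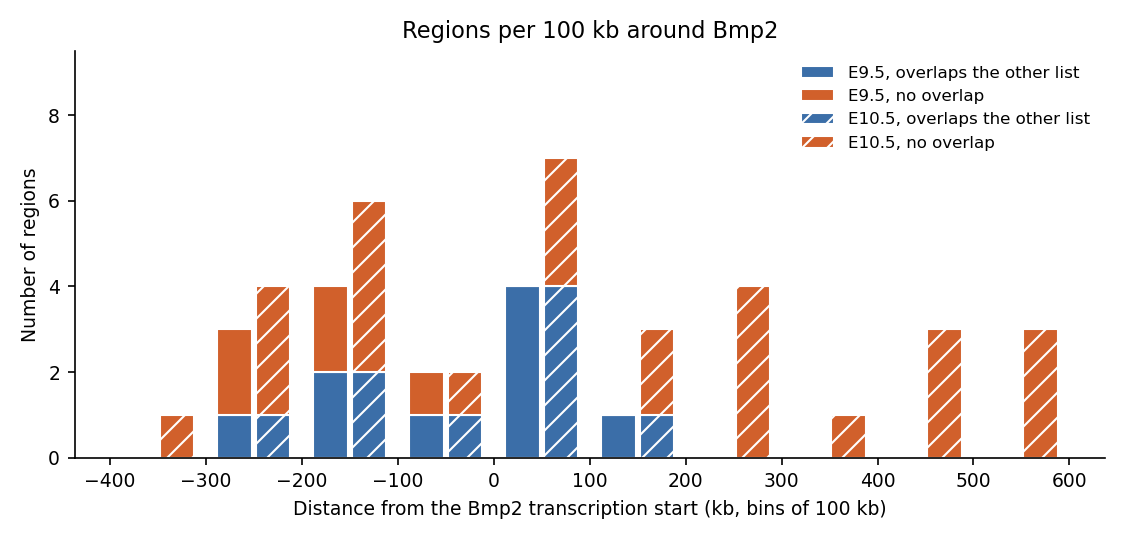
Number of accessible regions (y axis) in 100 kb bins by distance from the Bmp2 start (x axis, kb), for E9.5 and E10.5, with shared (blue) and stage-specific (orange) regions stacked and E10.5 hatched. Beyond 200 kb downstream the bins hold E10.5 regions only, with 4 in the bin from 200 to 300 kb.

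The length covered by regions differed between the stages. In the 1 Mb window the regions covered 15.7 kb at E9.5 and 43.8 kb at E10.5, a ratio of 2.79, while the whole lists covered 57285 and 56000 kb, a ratio of 0.978. Over 1572 windows of 1 Mb with at least 10 regions in both lists the median ratio was 0.976, and the 5th and 95th percentiles were 0.534 and 1.74. The ratio restates the contrast by which the locus was chosen, and its place among the windows is a description. A window on chromosome 13 with the starts of Fgf10, a growth factor of limb mesenchyme, and Mrps30, a mitochondrial ribosomal protein gene, had a ratio of 2.84.

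In base composition the E10.5-specific regions were close to their class. The GC content of about 300 bp at the centre had a median of 43.5% and ranged from 32.9 to 50.2%, beside a median of 44.2% over all E10.5-specific regions and 42.9% over those at 100 kb or more from a gene. The 6 distal shared regions had a median of 43.0% as placed in the E10.5 list, beside 50.5% for all distal shared regions, and of 47.1% as placed in the E9.5 list, beside 50.8%. The 5 E9.5-specific regions had a median of 45.2%, beside 51.8% for their class. The 4 of them at 100 kb or more had 44.4%, beside 48.2%. GC content and specificity went together over the whole E10.5 list. Among regions of the lowest GC quintile, 18.3 to 43.2%, the specific share was 74.2%, and in the Bmp2 locus it was 9 of 12. In the second quintile, 43.5 to 48.2%, the whole-list share was 55.3% and the locus had 9 of 11, and in the third, 48.5 to 53.5%, the values were 32.8% and 3 of 5. When every region was given the specific share of regions of like GC quintile and score decile, 15.3 of the 30 E10.5 regions and 4.9 of the 14 E9.5 regions would be specific, beside the 21 and 5 observed. In the 1 Mb window the numbers were 17.1 and 25. These counts are the contrast by which the locus was chosen, and distance from a start was not matched. The part of GC content in the counts was not tested.

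Motifs were searched on both strands in about 300 bp at the centre of each region. Most members were distal, whereas background shares are over all regions unless distal or specific ones are named. The E-box CAGATG, bound by HAND and TWIST factors of limb mesenchyme, was found in 9 of the 30 E10.5 regions nearest Bmp2, all E10.5-specific. It occurred in 25.2% of all E10.5 regions, 31.5% of distal ones and 33.9% of E10.5-specific ones. The homeodomain motif TAATTA was found in 6 of 30, beside 8.78% of all, 12.0% of distal and 15.8% of specific regions. The AP-1 motif TGANTCA and the TALE motif TGACAG were found in 4 regions each, with 7.46 and 20.8% of all E10.5 regions. CAATAAA, of posterior HOX proteins, was found in 5 with 5.56%. Over distal E10.5 regions these motifs had shares of 9.17, 23.8 and 7.33%. The nuclear receptor motif AGGTCA was present in 5 of the 14 E9.5 regions, all shared, and in 6 of the 30 E10.5 regions, 4 of them shared. It occurred in 20.4 and 17.3% of the whole lists and in 25.3 and 20.3% of distal regions. GATA motifs (AGATAA) were found in 4 E9.5 and 3 E10.5 regions, with background shares of 10.4 and 9.73%, and 13.9 and 12.3% of distal regions. These counts are small, and none was tested.

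The GLI motif, bound by Hedgehog effectors, and SMAD motifs, bound by BMP effectors, were searched in the same way. The GLI motif GGGTGGTC occurred in 1 E10.5 region, the E10.5-specific one 171 kb upstream with a score of 95.11, and in 0.937% of all E10.5 regions. The SMAD palindrome GTCTAGAC was found in no region of either list nearest Bmp2, and in 0.284% of all E9.5 and 0.306% of all E10.5 regions. The BMP SMAD element GGCGCC was found only in the region at the Bmp2 start, in both lists, beside 13.0 and 11.2% of all regions and 5.91 and 4.56% of distal ones. At these shares a count of 0 or 1 among 14 or 30 regions says little. The CTCF core AGGGGGC had no match in the regions nearest Bmp2, beside 12.1% of all E9.5 and 10.2% of all E10.5 regions. The SOX motif ACAATGG (3.98 and 2.97%) and the T-box motif AGGTGTGA (0.833 and 0.967%) had none either. Of the remaining motifs, PITX TAATCC was found in 0 E9.5 and 3 E10.5 regions (6.57 and 7.49% of all), and TEAD GGAATG in 2 and 2 (16.2 and 16.6%). Forkhead TGTTTAC was found in 1 and 3 (3.46 and 3.66%), ETS CCGGAAGT in 0 and 1 (2.03 and 1.92%), and PBX-HOX TGATTNAT in 1 and 0 (4.95 and 6.1%). A match is a run of letters and not a bound site, and its absence from the window says nothing about the factor.

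Compared with other genes, Bmp2 was among the 108 with at least 10 E9.5 and 20 E10.5 nearest regions. The median share of E9.5-specific regions of these genes was 33.3% and that of E10.5-specific regions 54.0%, and 12 of them, Bmp2 included, were at or above 70.0% at E10.5, the measure by which Bmp2 was chosen. In the number of E10.5 regions, 23 of 22380 protein-coding genes had at least 30. The gene with the most similar pair of shares was Lsamp, which encodes a neuronal cell adhesion protein, with 5 of 14 E9.5-specific and 18 of 27 E10.5-specific regions (35.7 and 66.7%). It was followed by Trps1, a GATA-type repressor of cartilage development, with 4 of 12 and 16 of 24, and Tmtc2 with 4 of 10 and 14 of 20. The others were Ptprd, with 8 of 20 and 30 of 42, and Plcb4, with 4 of 11 and 13 of 20. Likeness was the Euclidean distance between the 2 shares, which was 3.33 percentage points for Lsamp and 5.04 for Plcb4.

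**Figure D4:**
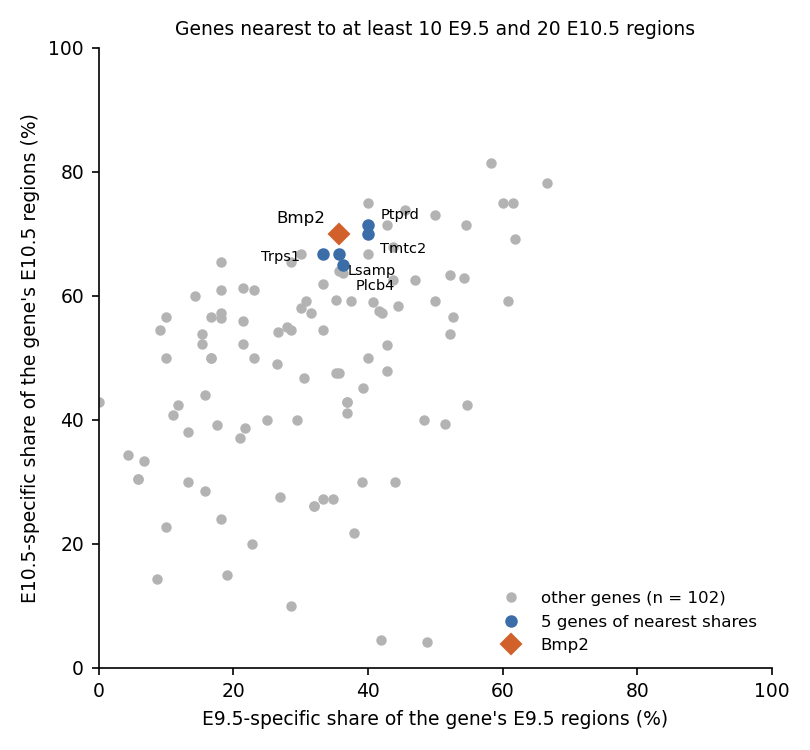
E9.5-specific share (x axis, percent) against E10.5-specific share (y axis, percent) of the regions nearest each of the 108 genes with at least 10 E9.5 and 20 E10.5 regions, with Bmp2 and the genes of the most similar shares labelled. Bmp2 lies at 35.7 and 70.0%, beside medians of 33.3 and 54.0%.

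Among 30 other genes of the BMP pathway, the stage-specific regions numbered 49 of 181 (27.1%) at E9.5, with a background of 29.9%, and 57 of 197 (28.9%) at E10.5, with a background of 35.0%. A region lay within 2.5 kb of the start of 29 of the 30 genes at both stages, the exception being Gdf5, a ligand of joint formation. The same share over all genes is not given here, so nothing is read from this count. Of the other ligands, Bmp4 had 1 of 4 E9.5-specific and 1 of 5 E10.5-specific regions, Bmp7 had 4 of 14 and 3 of 12, Bmp5 had 1 of 4 and 5 of 8, and Gdf6 had 0 of 8 and 3 of 10. For all 6 ligands together the counts were 6 of 33 and 12 of 38 (18.2 and 31.6%). Bmp5 and Gdf6 thus had more E10.5-specific than E9.5-specific regions, as Bmp2 did, and Bmp4, Bmp6, Bmp7 and Gdf5 did not.

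Among the 6 receptors, 9 of 30 E9.5 and 27 of 48 E10.5 regions were specific. Bmpr1b, the type I receptor of early cartilage, had 3 of 8 and 14 of 19, and the type II receptor gene Acvr2a had 4 of 14 and 12 of 22. The 7 antagonist genes had 11 of 38 and 9 of 38 (28.9 and 23.7%). Among them, Grem1, the BMP antagonist of posterior limb mesenchyme, had 0 of 1 at both stages by nearest start. Regions nearest Fmn1, which shares a regulatory landscape with Grem1, were not counted for Grem1. Of these, 1 of 11 was E9.5-specific and 12 of 22 were E10.5-specific. The 6 Smad genes had 14 of 46 and 9 of 43 (30.4 and 20.9%). Among them, Smad6, an inhibitor of BMP signalling, had 6 of 12 and 0 of 7. The 5 target genes were Id1, Id2, Id3, Msx1 and Msx2, which are induced by BMP signals. They had 9 of 34 E9.5-specific (26.5%) and 0 of 30 E10.5-specific regions. The share that 3 counts in 30 would give, 10%, is taken as the upper limit of the latter. That limit would hold only for regions drawn separately, whereas these 30 cluster at 5 genes. The genes were also chosen with earlier results known. Over all E10.5 regions the specific share was 74.2% in the lowest GC quintile and 0.394% in the highest. No share matched for GC content or distance from a start is given here, so no depletion is read from this count. Counts of stage-specific regions were higher at E10.5 for 7 of the 30 genes, lower for 12 and equal for 11.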

How the data were processed

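Forelimb buds of wild-type NMRI embryos were profiled by ATAC-seq with 2 biological replicates per stage. The authors aligned reads to mm9 with Bowtie 1.1.0, called regions in each replicate with MACS 1.4 and combined the replicates with MSPC at a stringent p-value of 1e-10 and a weak p-value of 1e-06. The tool versions are those of the submitters' processing notes. The deposited files hold 1 list per stage, in which the authors' score is 10 times the negative log10 of the best p-value. No read totals were used, so depth is unknown and precision cannot be set from it.

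From these lists, region centres were assigned to the nearest of 70064 transcription starts of 22380 protein-coding genes (GENCODE vM1), and GC content was read from the NCBIM37 assembly (mm9). Scores were ranked within each list. Scripts were written in Python 3.11.15 with pandas 2.3.3, numpy 2.4.6 and scipy 1.17.1, and the functions for overlap, gap and nearest start were tested on simulated data. No test was made, since each stage has 1 combined list. The members and all gene and motif lists were chosen with earlier results of these data known. Regions named in full were the 5 highest-scoring E10.5-specific, the 3 highest-scoring E9.5-specific and the 5 highest-scoring shared regions of each list, those at the start and the outermost ones. Alternatives were a reciprocal overlap of 50%, a gap of up to 500 bp, a minimum score of 100, the higher-scoring 50% of regions, other window edges, and the starts of genes of every type.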

Additional observations from a re-analysis of the deposited data

How the results depend on the processing

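Of 47 recomputed values, 32 stayed near the reported value and 15 moved further. Near meant within 1.5 times a count or ratio, or within the 95% binomial interval of the median GC content, 40.5 to 46.5%. No difference between the stages changed direction, except where counts became equal. That direction is the contrast by which the locus was chosen, and the alternatives reuse the same lists, so its persistence is a description. Keeping only the higher-scoring 50% of each list left 15 E10.5 and 5 E9.5 regions nearest Bmp2, of which 11 and 1 were stage-specific, with 13 and 1 in the 1 Mb window. Setting the higher-scoring 50% against the whole other list left 7 E10.5-specific and 1 E9.5-specific regions nearest Bmp2, and 9 and 1 in the window. When starts of genes of every type were used, non-coding genes of the desert took most regions, so that 4 E10.5 and 4 E9.5 regions were nearest Bmp2, 1 of each was stage-specific, and the median GC content of the E10.5-specific one was 47.8%. With a gap of up to 500 bp counted as shared, 20 E10.5 regions nearest Bmp2 and 24 in the window remained specific. With a score of at least 100, 20 of 29 regions nearest Bmp2 were E10.5-specific. The share over all regions was not given for the changed lists and overlap rules, so these counts have no background beside them. No paired analysis was possible because the replicates had been merged, and none could be left out for the same reason. Without read depth, a region missing from a list may lie below its threshold.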

Other observations

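Beside the Bmp2 and Fgf10 windows, the 1 Mb windows with the next largest ratios of covered length, E10.5 over E9.5, held the starts of Negr1 and 4930566N20Rik on chromosome 3 (2.72), Tmtc2 on chromosome 10 (2.61), and Kcnh7 and Fign on chromosome 2 (2.52). In the Negr1 window 10 E9.5 and 29 E10.5 regions were counted, and in the Tmtc2 window 10 and 26. These windows were picked by this ratio, so the values are a description.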
